A study of Mus musculus with 26 samples.

Results

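The genes described here encode 34 lysosomal proteins, chosen by name and not by their values, out of 52636 genes in the count files. They comprise 23 soluble lysosomal proteins (22 hydrolases and the activator protein Gm2a), 10 lysosomal membrane proteins and Sumf1, the enzyme of the endoplasmic reticulum that activates sulfatases. The symbols of all 34 matched a gene in the files, and all 34 were among the 21371 genes that passed the filter on low counts.

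Soluble hydrolases are made in the endoplasmic reticulum, tagged in the Golgi with mannose 6-phosphate and delivered to the lysosome, where each removes a particular sugar, sulfate, lipid or peptide from its substrate. The membrane proteins form the glycosylated inner coat of the lysosome, carry substrates and products across it, or route other proteins to it. Microglia are the resident phagocytes of the brain and depend on these proteins to break down what they engulf. Progranulin, encoded by Grn, is itself delivered to lysosomes, and Tmem106b encodes a lysosomal membrane protein.

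The series asked whether lowering or removing Tmem106b alters the consequences of Grn deficiency in mouse microglia. Poly(A) RNA was measured in 26 libraries from 7 genotypes, which the labels write as TMEM and GRN followed by WT (both alleles intact), HET (1 allele disrupted) or KO. With the Tmem106b genotype first, there were 3 libraries of Tmem106b WT Grn WT, 5 of Tmem106b WT Grn HET, 4 of Tmem106b WT Grn KO, 4 of Tmem106b HET Grn WT, 3 of Tmem106b HET Grn HET, 3 of Tmem106b HET Grn KO and 4 of Tmem106b KO Grn WT. No group lacked both genes. Tmem106b KO was present with Grn WT only, so the effect of removing Tmem106b on Grn deficiency cannot be read from these libraries. The labels mark 14 libraries as female and 12 as male, and 18 as Entire and 8 as Hemi for the dissection. These labels were not balanced over the groups. Among Tmem106b HET Grn WT and Tmem106b HET Grn KO libraries, Hemi was found only in males and Entire only in females. Sex and dissection thus cannot be separated within those groups. Tmem106b WT Grn WT comprised 2 Entire males and 1 Hemi female. Tmem106b WT Grn KO comprised 3 females and 1 male, with 3 Entire and 1 Hemi. The making of the alleles, the isolation of the microglia and the age of the mice are not given in the sources used here, and separate animals are not stated for the libraries. The p-values therefore measure the spread between these libraries, which may in part be technical.

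Libraries held 37.6 to 63.7 M counts (median 48.8 M). Grn was at 2075 to 4048 CPM (counts scaled to the library's total) in the Grn WT groups with Tmem106b WT or HET, and at 16.0 CPM or less in all 7 Grn KO libraries. Tmem106b was at 68.7 to 88.6 CPM in Tmem106b WT Grn WT and at 24.0 to 35.7 CPM in the 4 Tmem106b KO libraries, so reads over that gene remained. The 8 microglial markers, led by Csf1r, Tmem119 and Cx3cr1, were detected in all 26 libraries. Their summed level was 29159 to 35992 CPM in Tmem106b WT Grn WT and 14287 to 18147 CPM in Tmem106b WT Grn KO. Libraries that stood apart were replicate 3 of Tmem106b HET Grn KO, at 5349 CPM, and replicate 2 of Tmem106b KO Grn WT, at 6279 CPM, while the next lowest library was at 13083 CPM. The same 2 libraries had the highest summed levels of 10 neuronal markers, 6914 and 7180 CPM. In bulk libraries such as these, fewer cells of a type and less RNA per cell cannot be told apart.

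Many lysosomal genes carry near their start the letters TCACGTG, the core of the element bound by TFEB and its relatives, the basic helix-loop-helix factors known to drive lysosomal gene expression. Promoters of 33 of the 34 genes were matched in the RefSeq table for GRCm38.p6, each spanning 250 bases before to 50 bases after a RefSeq start. TCACGTG, searched on both strands (its reverse complement is CACGTGA), was present in 10 of these 33 genes (30.3%), against 4.29% of all 27025 genes with a promoter in that table. It was found in 6 of 22 soluble proteins, in 3 of 10 membrane proteins and in Sumf1. The longer palindrome TCACGTGA, which contains the shorter motif on both strands, was present in 4 of the genes (Gla, Cd164, Cln3 and Sumf1), against 1.12% of all genes. The promoters of 4 genes are printed because these genes both hold the motif and passed the test of Grn KO described next. They are Gla, Glb1 and Gaa in the higher direction and Cd164 in the lower direction. Genes that passed without the motif are not printed. Capitals mark the motif, and each sequence reads 5′ to 3′ along the gene's own strand.
Gla promoter (GRCm38.p6, chrX:134600956-134601255, minus strand): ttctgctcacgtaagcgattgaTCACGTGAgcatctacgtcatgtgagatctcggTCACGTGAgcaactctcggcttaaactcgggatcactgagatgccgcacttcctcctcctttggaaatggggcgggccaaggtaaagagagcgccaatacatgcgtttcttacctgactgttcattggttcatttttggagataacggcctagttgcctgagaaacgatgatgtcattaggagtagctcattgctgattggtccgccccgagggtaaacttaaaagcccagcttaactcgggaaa
Glb1 promoter (GRCm38.p6, chr9:114400828-114401127, plus strand): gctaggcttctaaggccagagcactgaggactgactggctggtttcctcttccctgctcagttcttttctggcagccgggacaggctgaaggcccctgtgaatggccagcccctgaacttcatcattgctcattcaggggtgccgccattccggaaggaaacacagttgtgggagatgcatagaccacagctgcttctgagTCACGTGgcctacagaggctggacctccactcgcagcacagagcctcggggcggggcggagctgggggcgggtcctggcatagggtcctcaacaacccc
Gaa promoter (GRCm38.p6, chr11:119267713-119268012, plus strand): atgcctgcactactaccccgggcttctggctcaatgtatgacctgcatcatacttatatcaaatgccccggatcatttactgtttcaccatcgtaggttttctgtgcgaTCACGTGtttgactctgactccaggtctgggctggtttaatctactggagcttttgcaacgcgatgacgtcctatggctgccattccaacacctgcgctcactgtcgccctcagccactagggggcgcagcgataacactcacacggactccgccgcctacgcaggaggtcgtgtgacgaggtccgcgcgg
Cd164 promoter (GRCm38.p6, chr10:41519250-41519549, plus strand): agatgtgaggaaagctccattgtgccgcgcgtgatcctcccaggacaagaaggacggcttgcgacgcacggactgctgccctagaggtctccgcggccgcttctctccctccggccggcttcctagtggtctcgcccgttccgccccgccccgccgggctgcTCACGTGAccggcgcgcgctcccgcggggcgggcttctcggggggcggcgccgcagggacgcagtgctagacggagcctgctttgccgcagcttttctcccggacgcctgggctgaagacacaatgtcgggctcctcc
The Gla promoter holds the palindrome at 2 places, beginning 228 and 195 bases before the start. The single matches of Glb1, Gaa and Cd164 begin 49, 141 and 88 bases before the start. Lamp1 had 4 matches, Cln3 had 2 in 1 of its 2 listed promoters, and Naglu, Arsa, Sgsh and Sumf1 had 1 each. No match was found in these windows for Cd63, Cd68, Neu1, Acp2, Arsb or Laptm5, which also passed the test, so genes with and without the letters were found among those that rose and among those that fell. A match is a description of the letters and does not show that a factor was bound there.

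Loss of both Grn alleles was the comparison in which these genes differed. Averaged over the Tmem106b WT and HET backgrounds (7 Grn KO against 7 Grn WT libraries), 6 genes rose and 4 fell by edgeR's quasi-likelihood test, adjusted by Benjamini-Hochberg across the 21371 genes. The genes that rose were the hydrolases Gla, Glb1, Neu1 and Gaa and the membrane proteins Cd63 and Cd68. The genes that fell were the hydrolases Acp2 and Arsb and the membrane proteins Cd164 and Laptm5. The 10 genes are 29.4% of the 34, beside 18.1% of all genes tested. By direction, 17.6% of the 34 rose and 11.8% fell, beside 10.7% and 7.38% of all genes. The plot of CPM by genotype shows these 10 genes in every library.

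**Figure D1:**
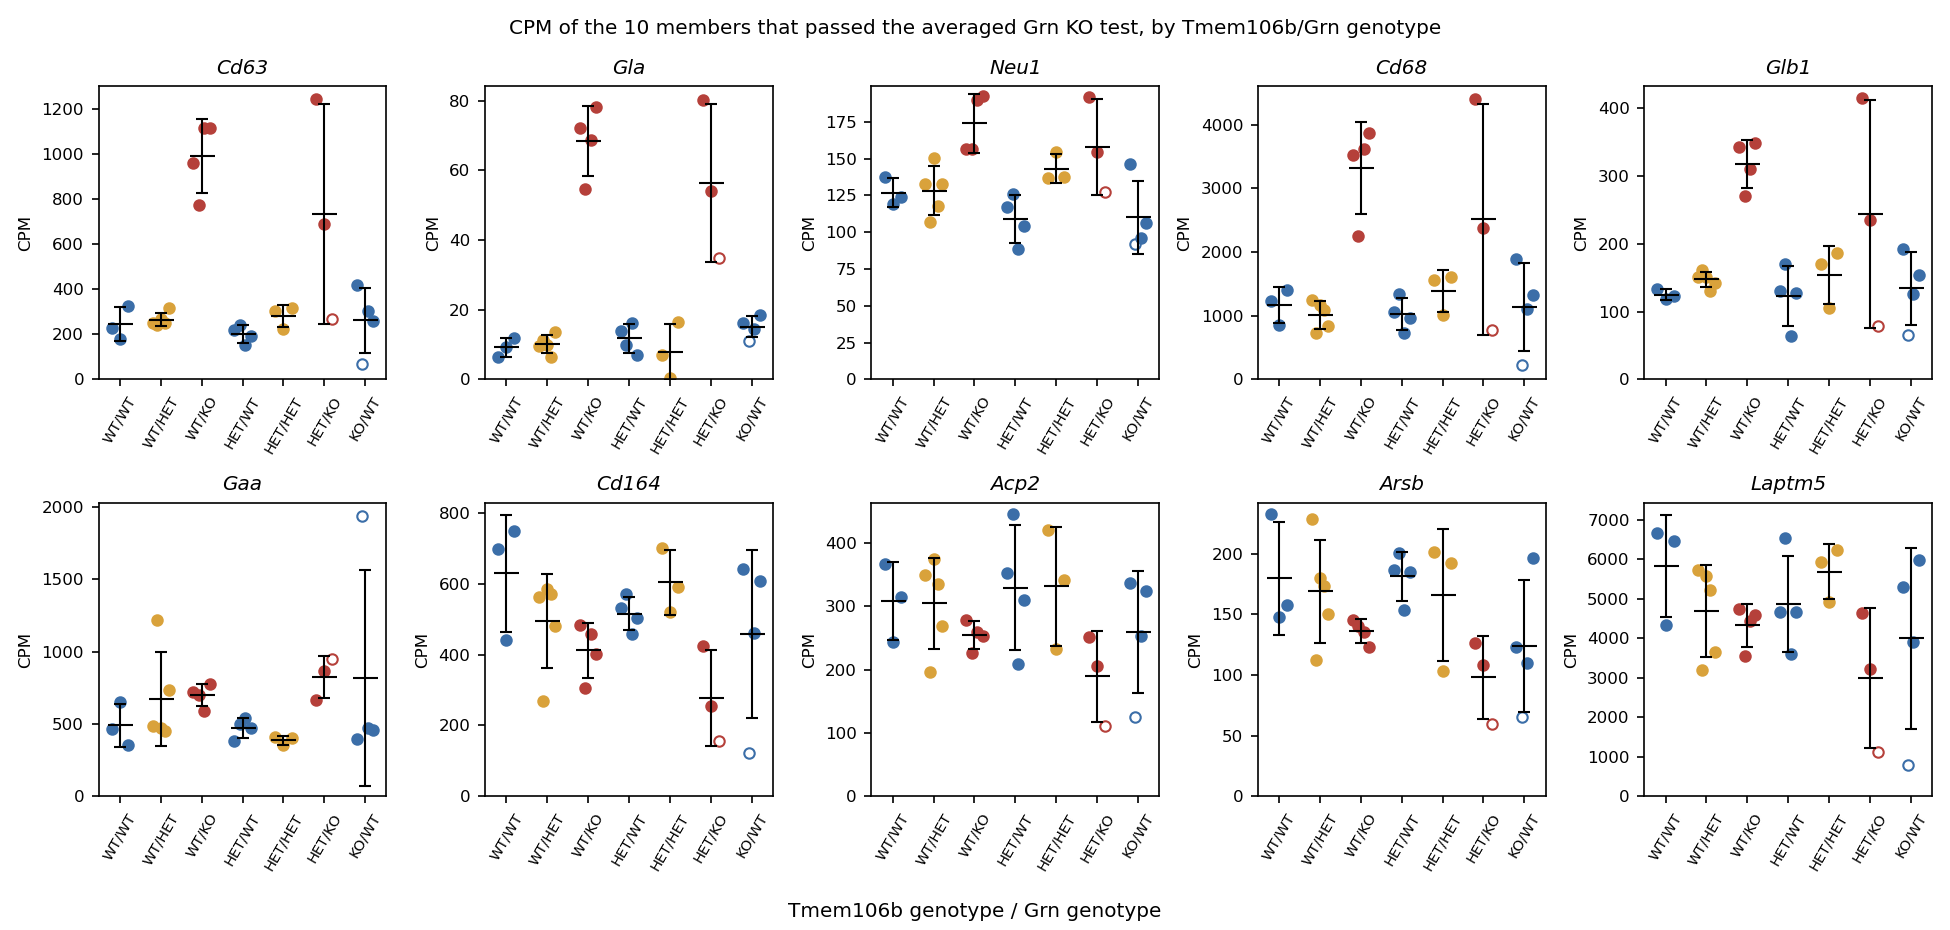
CPM (vertical axis, linear, from 0) of the 10 genes that passed the averaged Grn KO test, in each of the 26 libraries, by Tmem106b/Grn genotype. Points are libraries (blue Grn WT, yellow Grn HET, red Grn KO), open points are the 2 libraries with the lowest microglial marker sum, and bars are mean ± SD. In Tmem106b WT the 4 Grn KO libraries of Gla sit between 54.5 and 78.3 CPM, above the 6.45 to 11.9 CPM of Grn WT, and the 3 Tmem106b HET Grn KO libraries spread widely for Cd63, Cd68 and Glb1.

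Gla encodes α-galactosidase A, which removes terminal galactose from globotriaosylceramide. It was the lowest of the 23 soluble genes per length in Tmem106b WT Grn WT, and it had the highest fold change of the 34 genes. In Tmem106b WT its level was 6.45, 9.37 and 11.9 CPM in the 3 Grn WT libraries and 72.1, 54.5, 68.7 and 78.3 CPM in the 4 Grn KO libraries. With Tmem106b HET the values were 13.8, 9.86, 16.3 and 7.10 CPM in Grn WT and 80.2, 54.1 and 34.8 CPM in Grn KO. Grn KO and Grn WT libraries did not overlap in either background. The averaged difference was 2.63 on the log2 scale (SE 0.49, edgeR adjusted p = 0.00135). In Tmem106b HET alone Gla also rose by 2.29 on that scale (SE 0.64, edgeR adjusted p = 0.0234). In Tmem106b WT alone the difference was 2.98 (SE 0.71) and did not pass (edgeR adjusted p = 0.0632), although it passed with DESeq2 (adjusted p = 0.000152) and with limma-voom (adjusted p = 0.0112).

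Glb1 encodes β-galactosidase, which acts on GM1 ganglioside and keratan sulfate, and Neu1 encodes a sialidase that works in a complex with it. Glb1 was at 134, 118 and 123 CPM in the Tmem106b WT Grn WT libraries and at 342, 270, 310.1 and 348 CPM in Tmem106b WT Grn KO. Libraries of Tmem106b HET held 130.5, 171, 63.9 and 128 CPM in Grn WT and 415, 235 and 79.2 CPM in Grn KO. The groups were apart in Tmem106b WT and overlapped in Tmem106b HET through replicate 3 of Grn KO, 1 of the 2 libraries low in microglial markers. Glb1 rose by 0.99 on the log2 scale in the averaged comparison (SE 0.25, edgeR adjusted p = 0.0106). An exon of Tmppe lies on the same strand inside Glb1, so some of these counts could belong to either gene.

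Neu1 differed less but evenly. It was at 138, 119 and 124 CPM in Tmem106b WT Grn WT, and at 156, 157, 190.1 and 192 CPM in Tmem106b WT Grn KO. In the Tmem106b HET background the level was 117, 126, 88.4 and 104 CPM in Grn WT and 192, 154 and 127 CPM in Grn KO. Grn KO libraries were above Grn WT libraries in both backgrounds, by a narrow margin in Tmem106b HET. The averaged log2 fold change was 0.42 (SE 0.10, edgeR adjusted p = 0.00816), and in Tmem106b HET alone it was 0.47 (SE 0.14, edgeR adjusted p = 0.0300).

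Gaa encodes the acid α-glucosidase that degrades glycogen. Its level was 467, 652 and 352 CPM in Tmem106b WT Grn WT and 723, 702, 592 and 773 CPM in Tmem106b WT Grn KO, with overlap. Tmem106b HET libraries held 381, 498, 544 and 472 CPM in Grn WT and 667, 868 and 948 CPM in Grn KO, without overlap. Gaa rose in the averaged comparison by 0.78 on the log2 scale (SE 0.23, edgeR adjusted p = 0.0255). It differed from the other hydrolases that rose in which libraries were high. The Tmem106b HET Grn KO library low in microglial markers was the highest of its group for Gaa, at 123% of the mean of the other 2, whereas Glb1 there was at 24.3%. The corresponding Tmem106b KO Grn WT library held 1934 CPM, 438% of the mean of its group's other 3 libraries.

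Cd63, a tetraspanin of late endosomes and lysosomes, had the smallest p of the 34 genes and was the one gene that passed in Tmem106b WT alone. Its level was 229, 180.1 and 327 CPM in Tmem106b WT Grn WT and 959.8, 776, 1119 and 1117 CPM in Tmem106b WT Grn KO. With Tmem106b HET it was 220, 242, 154 and 191 CPM in Grn WT and 1245, 689.5 and 270.3 CPM in Grn KO. Libraries did not overlap in either background, although the third Tmem106b HET Grn KO library lay close to Grn WT. The log2 fold change was 1.95 in Tmem106b WT (SE 0.40, edgeR adjusted p = 0.0226), 1.62 in Tmem106b HET (SE 0.38, edgeR adjusted p = 0.00892) and 1.78 averaged (SE 0.28, edgeR adjusted p = 0.000406). The call in Tmem106b WT was lost without any 1 of the 3 Grn WT libraries or without replicate 1 of Grn KO, and also with no covariates (adjusted p = 0.0656) or with sex as the sole covariate (adjusted p = 0.139).

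Cd68, or macrosialin, is a heavily glycosylated protein of macrophage lysosomes and a common marker of phagocytic microglia. It was at 1224, 855 and 1409 CPM in Tmem106b WT Grn WT and at 3529, 2252, 3614 and 3865 CPM in Tmem106b WT Grn KO. Values in Tmem106b HET were 1059, 1341, 732 and 969 CPM in Grn WT and 4402, 2373 and 775 CPM in Grn KO. The groups were apart in Tmem106b WT, and in Tmem106b HET the third Grn KO library fell within Grn WT. Cd68 rose by 1.14 on the log2 scale in the averaged comparison (SE 0.28, edgeR adjusted p = 0.00827). In Tmem106b WT alone the difference was 1.38 (SE 0.39) and did not pass (edgeR adjusted p = 0.119).

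Of the 4 genes that fell, Arsb alone had Grn KO and Grn WT libraries apart in both backgrounds. Cd164, the sialomucin endolyn, was at 697, 440.2 and 748 CPM in Tmem106b WT Grn WT and at 482, 306, 457 and 400.2 CPM in Tmem106b WT Grn KO. In Tmem106b HET it was at 531, 569.6, 459 and 502 CPM in Grn WT and at 424, 256 and 156 CPM in Grn KO, without overlap. The averaged log2 fold change was -0.85 (SE 0.22, edgeR adjusted p = 0.0102), and in Tmem106b HET it was -1.10 (SE 0.31, edgeR adjusted p = 0.0227).

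Acp2, lysosomal acid phosphatase, was at 366, 244 and 315 CPM in Tmem106b WT Grn WT and at 279, 226, 259.97 and 253 CPM in Tmem106b WT Grn KO. In Tmem106b HET it was at 352, 446, 208 and 309 CPM in Grn WT and at 252, 206 and 110.4 CPM in Grn KO. Libraries of Grn WT and Grn KO overlapped in both backgrounds. The averaged log2 fold change was -0.62 (SE 0.16, edgeR adjusted p = 0.0117).

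Arsb, which removes sulfate from dermatan sulfate, was at 233, 148 and 158 CPM in Tmem106b WT Grn WT and at 145, 141, 136 and 123 CPM in Tmem106b WT Grn KO. In Tmem106b HET it was at 187, 201, 153 and 185 CPM in Grn WT and at 126, 108 and 59.6 CPM in Grn KO. Every Grn KO library was below every Grn WT library in both backgrounds. The averaged log2 fold change was -0.67 (SE 0.19, edgeR adjusted p = 0.0196).

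Laptm5, a multispanning protein of leukocyte lysosomes that helps send receptors for degradation, was at 6665, 4343 and 6454 CPM in Tmem106b WT Grn WT and at 4738, 3540, 4444 and 4576 CPM in Tmem106b WT Grn KO. In Tmem106b HET it was at 4653, 6523, 3596 and 4673 CPM in Grn WT and at 4649, 3226 and 1116 CPM in Grn KO. The libraries overlapped in both backgrounds. Its averaged log2 fold change of -0.76 passed by a small margin (SE 0.25, edgeR adjusted p = 0.0418), and it passed in 11 of 25 alternative fits. Cd164, Acp2 and Arsb passed in 21, 20 and 16 of the 25. All 4 genes that fell lost the call with no covariates, with sex as the sole covariate and with the marker sums as covariates.

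The microglial marker sum and the neuronal marker sum moved with this comparison. All 8 microglial markers had a negative log2 fold change in the averaged comparison (median -1.50), and 6 of them fell. All 10 neuronal markers rose (median 2.91), with summed levels of 484 to 852 CPM in Tmem106b WT Grn KO, 538 to 6914 CPM in Tmem106b HET Grn KO and 68.8 to 1362 CPM in the Grn WT groups of these backgrounds. With the neuronal and oligodendrocyte marker sums as further covariates, 1 of the 34 genes passed in the averaged comparison, beside 0.683% of all genes. Calls thus fell over all genes, from 18.1% without the marker sums. The gene was Cd63 (log2 fold change 2.13, edgeR adjusted p = 0.0109). Gla missed the threshold (edgeR adjusted p = 0.0503). Over the 25 alternatives, which include the marker-sum fit, the log2 fold change of Gla ran from 2.51 to 3.11. In that fit Glb1 was at 1.27 on the log2 scale, Cd68 at 1.48 and Neu1 at 0.60, above their values without the marker sums, and Gaa at 0.31, Cd164 at -0.49, Laptm5 at -0.44, Arsb at -0.31 and Acp2 at -0.25, closer to 0. The part of these marker values in the genes that rose or fell was not tested beyond that fit.

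**Figure D2:**
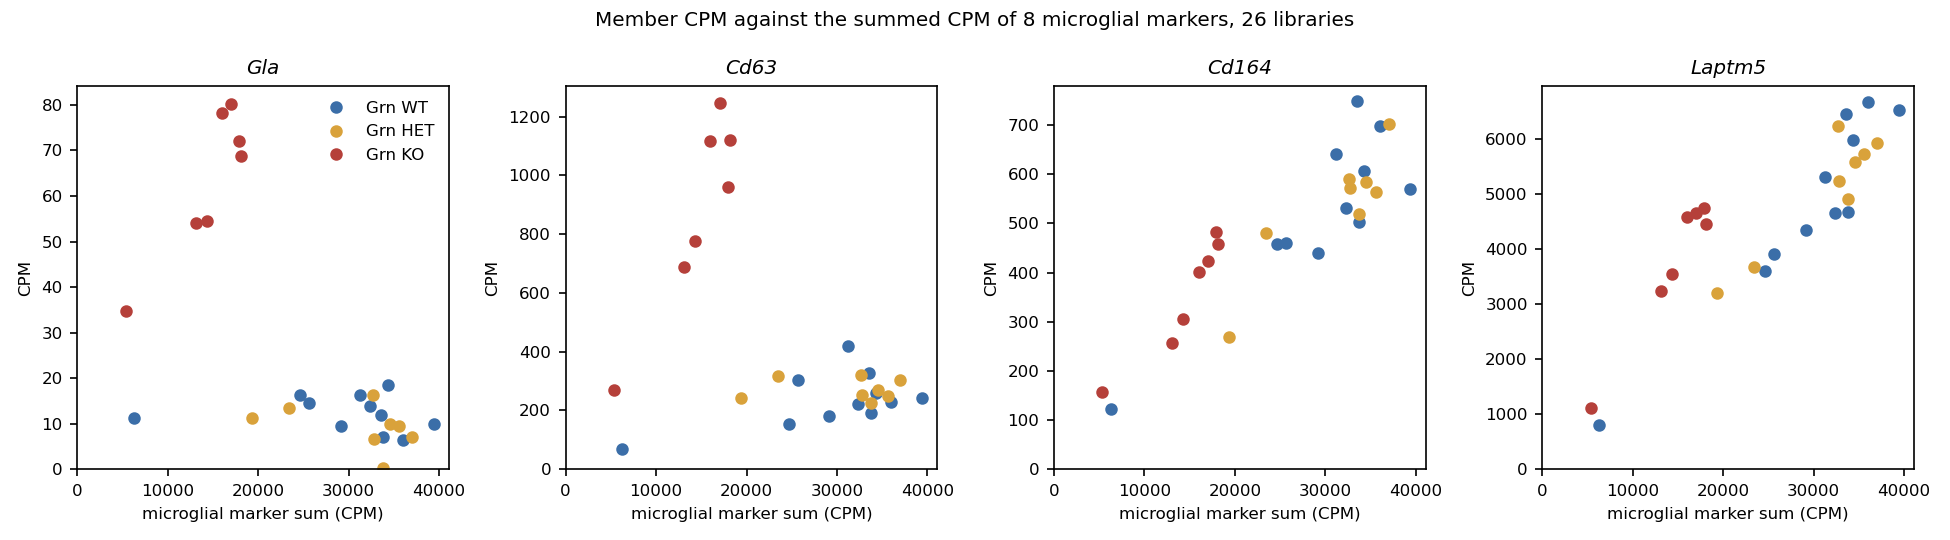
CPM of Gla, Cd63, Cd164 and Laptm5 (vertical axes, from 0) against the summed CPM of 8 microglial markers (horizontal axis, CPM) in 26 libraries, coloured by Grn genotype. For Gla all Grn KO libraries lie above the Grn WT and Grn HET libraries, at marker sums of 18147 CPM or less, and for Cd63 all but the one at 270.3 CPM do, while the lowest levels of Cd164 (121 and 156 CPM) and Laptm5 (804 and 1116 CPM) are in the 2 libraries with the lowest marker sums.

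Soluble and membrane proteins were then compared as classes. In Tmem106b WT the median log2 fold change for Grn KO was 0.28 over the 23 soluble genes and -0.12 over the 10 membrane genes, beside 0.10 over all genes tested. There were 17 positive and 6 negative values among the soluble genes and 4 positive and 6 negative among the membrane genes. Most soluble genes were thus positive and most membrane genes negative. In Tmem106b HET the medians were -0.22 for soluble and -0.40 for membrane genes, beside -0.02 over all genes, with 8 of 23 and 3 of 10 positive. Averaged, they were 0.05, -0.25 and 0.06. The membrane median was below the soluble median in both backgrounds and in their average, which comes from the same fit and the same libraries. Both classes held genes that rose and genes that fell, 4 and 2 of the 23 soluble genes and 2 and 2 of the 10 membrane genes. The membrane class had its genes at opposite ends, Cd63 and Cd68 on one side and Cd164 and Laptm5 on the other.

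Ordered by substrate, the enzymes of sphingolipid and ganglioside breakdown (9 genes) had the highest median, 0.61 in Tmem106b WT, 0.09 in Tmem106b HET and 0.35 averaged, and 3 of them rose in the averaged comparison. Besides Gla, Glb1 and Neu1, the group holds Hexa, the α subunit of β-hexosaminidase, and Gm2a, the activator that presents GM2 ganglioside to it. Hexa had an averaged log2 fold change of 0.54 (SE 0.23, edgeR adjusted p = 0.119) and Gm2a of 0.35 (SE 0.27, edgeR adjusted p = 0.394), and neither passed. Galc was at 0.33, acid sphingomyelinase (Smpd1) at 0.05, acid ceramidase (Asah1) at -0.20 and arylsulfatase A (Arsa) at -0.29, and these did not pass.

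The 6 enzymes of glycosaminoglycan breakdown had a median of -0.09 in Tmem106b WT and -0.37 in Tmem106b HET, where all 6 values were negative and Arsb alone fell. The 4 enzymes of glycogen and glycoprotein breakdown had medians of 0.37 and -0.23 in these backgrounds. Within that group the lysosomal α-mannosidase Man2b1 and the β-mannosidase Manba were negative in Tmem106b HET (-0.65 and -0.73) and near 0 or positive in Tmem106b WT (0.07 and 0.28), and none of these 4 values passed. A group of 4 multispanning membrane proteins, Laptm4a, Laptm5, Cln3 and Mfsd8, was negative in both backgrounds, with medians of -0.31 in Tmem106b WT and -0.59 in Tmem106b HET. It leaves out the tetraspanin Cd63, which also spans the membrane several times. Cd63 was placed with the heavily glycosylated membrane proteins and was at 1.95 and 1.62 in these backgrounds. Sumf1 was at -0.26 and -0.43 and passed in neither.

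**Figure D3:**
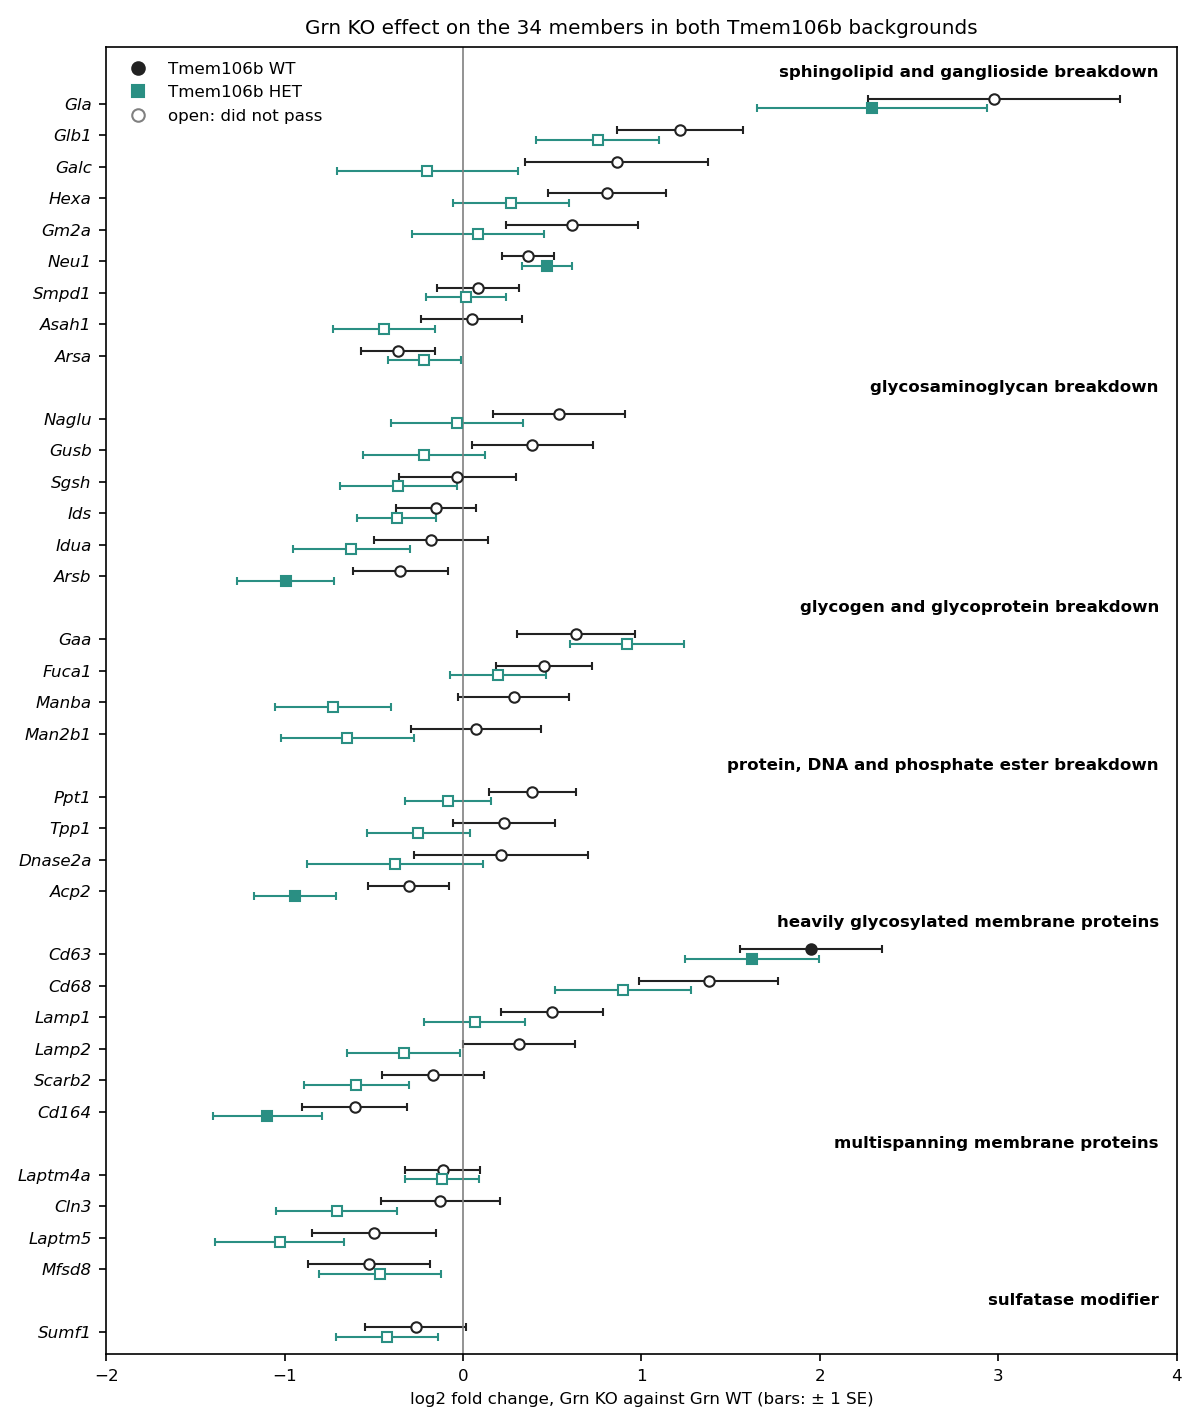
Log2 fold change of Grn KO against Grn WT (horizontal axis, bars ± 1 SE) for the 34 genes, grouped by role, in Tmem106b WT (black circles) and Tmem106b HET (green squares). Filled symbols passed edgeR's test after adjustment, which was Cd63 alone in Tmem106b WT and 6 genes in Tmem106b HET. Most green squares lie to the left of the black circles, as 30 of 34 genes had the lower value in Tmem106b HET.

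Within Tmem106b WT, 1 of the 34 genes passed (2.94%), beside 0.576% of all genes tested (0.426% higher and 0.15% lower). An unadjusted p under 0.05 was found for 6 of the 34, beside 2647 of all 21371 genes. Groups that did not overlap were more frequent. In 11 of the 34 genes (32.4%) all 4 Grn KO libraries were above all 3 Grn WT libraries, beside 8.78% of all genes tested. These were Gla, Glb1, Hexa, Gm2a, Neu1, Naglu, Gusb, Fuca1, Cd63, Cd68 and Lamp1. In 2 genes, Arsa and Arsb, all Grn KO libraries were below, beside 7.45% of all genes.

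Within Tmem106b HET, 6 of the 34 genes passed (17.6%), close to the 14.5% of all genes tested. Cd63, Gla and Neu1 rose (8.82% of the 34, beside 8.42% of all genes), and Acp2, Arsb and Cd164 fell (8.82%, beside 6.05%). Grn KO libraries were above all Grn WT libraries for 4 genes (11.8%, beside 9.85% of all genes) and below for 3 genes, Arsb, Cd164 and Ids (8.82%, beside 9.37%). These shares are near those of all genes. The 3 Grn KO libraries of this background spread widely, with a median coefficient of variation over the 34 genes of 57.9%, against 14.3% for Tmem106b WT Grn KO and 22.4% for Tmem106b WT Grn WT. Replicate 3, the library low in microglial markers, held a median of 33.1% of the mean of the other 2 for these genes, and 25 of 34 were below 50%. Without that library, Cd63, Gla and Glb1 rose and none of the 34 fell, beside 3.75% of all genes higher and 1.16% lower in that fit. In the averaged comparison, 6 genes then rose (Cd63, Gla, Glb1, Cd68, Neu1 and Gaa) and Cd164 alone fell, beside 7.91% and 4.17% of all genes.

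Leaving out that library together with the low library of Tmem106b KO Grn WT, an alternative chosen after seeing the data, gave 10 genes that rose (Hexa, Gm2a, Lamp1 and Fuca1 besides the 6 above) and 3 that fell (Cd164, Laptm5 and Acp2), beside 7.68% of all genes higher and 6.10% lower in the same fit. The median log2 fold change of the 34 genes in the averaged comparison went from -0.05 to 0.17, and that in Tmem106b HET from -0.23 to 0.12. Both medians were also positive in the Entire dissections alone (0.15 and 0.15) and with the marker sums as covariates (0.21 and 0.13). The averaged median was 0.06 with no covariates and 0.02 with sex alone, and between -0.15 and 0.14 with 1 library left out. With the Entire dissections alone, 9 genes rose and 3 fell in the averaged comparison, beside 7.94% and 6.40% of all genes.

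The Hemi libraries of these backgrounds, 2 of Grn KO and 3 of Grn WT, were not tested on their own. The difference of their mean log2(CPM + 1), averaged over the backgrounds, had the sign of the averaged fold change for all 10 genes that passed. The Hemi libraries are part of the averaged comparison that picked these genes, so this agreement is not an independent check. The difference is given for its size. That difference was 2.01 for Gla and 1.38 for Cd63. For Glb1 it was 1.18 in Tmem106b WT and -0.19 in Tmem106b HET, and for Cd68 it was 1.40 and -0.12. The Hemi library of Tmem106b HET Grn KO is replicate 3.

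The difference between the backgrounds was itself tested. The Grn KO effect in Tmem106b HET minus that in Tmem106b WT was negative for 30 of the 34 genes (median -0.48, beside -0.13 over all genes tested), and with edgeR 0 of the 34 genes passed, beside 0% of all genes. The smallest p was that of Manba, the single one of the 34 under 0.05 before adjustment (interaction -1.01, SE 0.44, edgeR adjusted p = 0.872). Over all 21371 genes, 917 were under 0.05 before adjustment. No member passed with DESeq2 or limma-voom. The signs are not independent across genes, since all 34 share the library described above. The direct comparison of Tmem106b HET with Tmem106b WT among Grn KO libraries uses the same libraries. There 31 of 34 genes were negative, with a median of -0.50, which went to -0.22 without the low library and to -0.84 without replicate 1 of Tmem106b HET Grn KO, and again 0 passed (0% of all genes).

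Among Grn WT libraries, Tmem106b KO against WT gave negative values for 31 of the 34 genes, with a median of -0.39, beside 0.07 over all genes tested. None of the 34 passed with edgeR, DESeq2 or limma-voom, beside 0.00468% of all genes, which is 1 gene, Tmem106b itself. Before adjustment, 5 of the 34 genes had a p under 0.05, beside 2349 of all 21371 genes tested. All 5 were negative, Idua (-0.79, SE 0.32), Laptm5 (-0.76, SE 0.34), Sgsh (-0.73, SE 0.32), Arsb (-0.64, SE 0.26) and Cd164 (-0.63, SE 0.29). Their edgeR adjusted p was between 0.434 and 0.451. Medians were -0.35 for soluble and -0.47 for membrane genes. Without replicate 2, the library low in microglial markers, the median of the 34 genes was -0.20, and without replicate 1 of Tmem106b KO Grn WT it was -0.63.

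That library split the genes. Its level was a median of 28.1% of the mean of the other 3 Tmem106b KO libraries, and 27 of 34 genes were below 50%, among them Dnase2a (7.32%), Galc (11.8%), Cd68 (15.3%) and Laptm5 (15.9%). Neu1 was at 79.4%, Smpd1 at 101.9%, Arsa at 106%, Ids at 129.5% and Gaa at 438%. The 5 genes with the highest shares, picked here after their values were seen, were all soluble enzymes. Its ratio of summed soluble to summed membrane RPKM was 1.23, while the other 3 libraries of the group began at 0.623 and the group median was 0.637.

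Disruption of a single Grn or Tmem106b allele made no difference that passed. The disrupted genes themselves did not pass either. Grn in Grn HET against Grn WT was at -1.59 (SE 1.24) in Tmem106b WT and -0.24 (SE 1.29) in Tmem106b HET. Tmem106b in Tmem106b HET against WT was at -0.30 in Grn WT (SE 0.22) and -0.30 in Grn HET (SE 0.23). These comparisons did not call the disrupted gene, so a lack of calls does not show that the 34 genes were unchanged. In Grn HET against Grn WT, 0 of the 34 genes passed in Tmem106b WT and 0 in Tmem106b HET with edgeR (0% of all genes in each), with medians of -0.12 and -0.06 beside 0.06 and -0.07 over all genes. Before adjustment 0 and 1 of the 34 genes had a p under 0.05, beside 734 and 1183 of all 21371 genes. The 1 gene was Neu1 (log2 fold change 0.33, SE 0.15, edgeR adjusted p = 0.854). Gla, the gene with the highest fold change in Grn KO, was at 6.52 to 13.5 CPM (median 9.93) in the 5 Tmem106b WT Grn HET libraries, overlapping the 6.45 to 11.9 CPM of Grn WT. In Tmem106b HET Grn HET it was at 0.305, 7.08 and 16.4 CPM, so 1 library held almost none. Cd63 in Tmem106b WT Grn HET was at 242 to 316 CPM, within the 180.1 to 327 CPM of Tmem106b WT Grn WT. In Tmem106b HET Grn HET Cd63 was at 303, 225 and 319 CPM, and 2 of the 3 libraries were above the 154 to 242 CPM of Tmem106b HET Grn WT. In Tmem106b HET against WT, 0 of the 34 genes passed among Grn WT libraries and 0 among Grn HET libraries (0% of all genes in each), with medians of -0.01 and 0.03. Before adjustment, none had a p under 0.05 in the first and 1 did in the second, beside 745 and 1451 of all 21371 genes. The 1 gene was Smpd1 (-0.56, SE 0.23, edgeR adjusted p = 0.684). DESeq2 and limma-voom called no member in these comparisons.

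Levels between genes were compared per length, on the deposited RPKM scale. In Tmem106b WT Grn WT the highest soluble gene was Hexa at 654 ± 102 RPKM (SD, n = 3), followed by Man2b1 at 469 ± 97.8 and Asah1 at 173 ± 33.1, which Tpp1 at 173 ± 20.4 did not differ from beyond the spread. The highest membrane genes were Laptm5 at 1822 ± 255, Lamp1 at 855 ± 122 and Cd68 at 752 ± 124, the last pair within 1 SD of each other. Gla was the lowest of all 34 at 2.40 ± 0.71 RPKM, next to Sgsh at 4.62 ± 0.68 and Mfsd8 at 4.93 ± 0.75. In Tmem106b WT Grn KO (n = 4) the order was headed by Cd68 at 2037 ± 342 RPKM, ahead of Laptm5 at 1292 ± 114, Lamp1 at 1198 ± 105 and Hexa at 1184.5 ± 124. Cd63 ranked 5 of 34 at 530.2 ± 53.6 RPKM, against 10 in Grn WT, and Gla at 16.7 ± 1.65 RPKM was above Galc, Sgsh and Mfsd8.

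**Figure D4:**
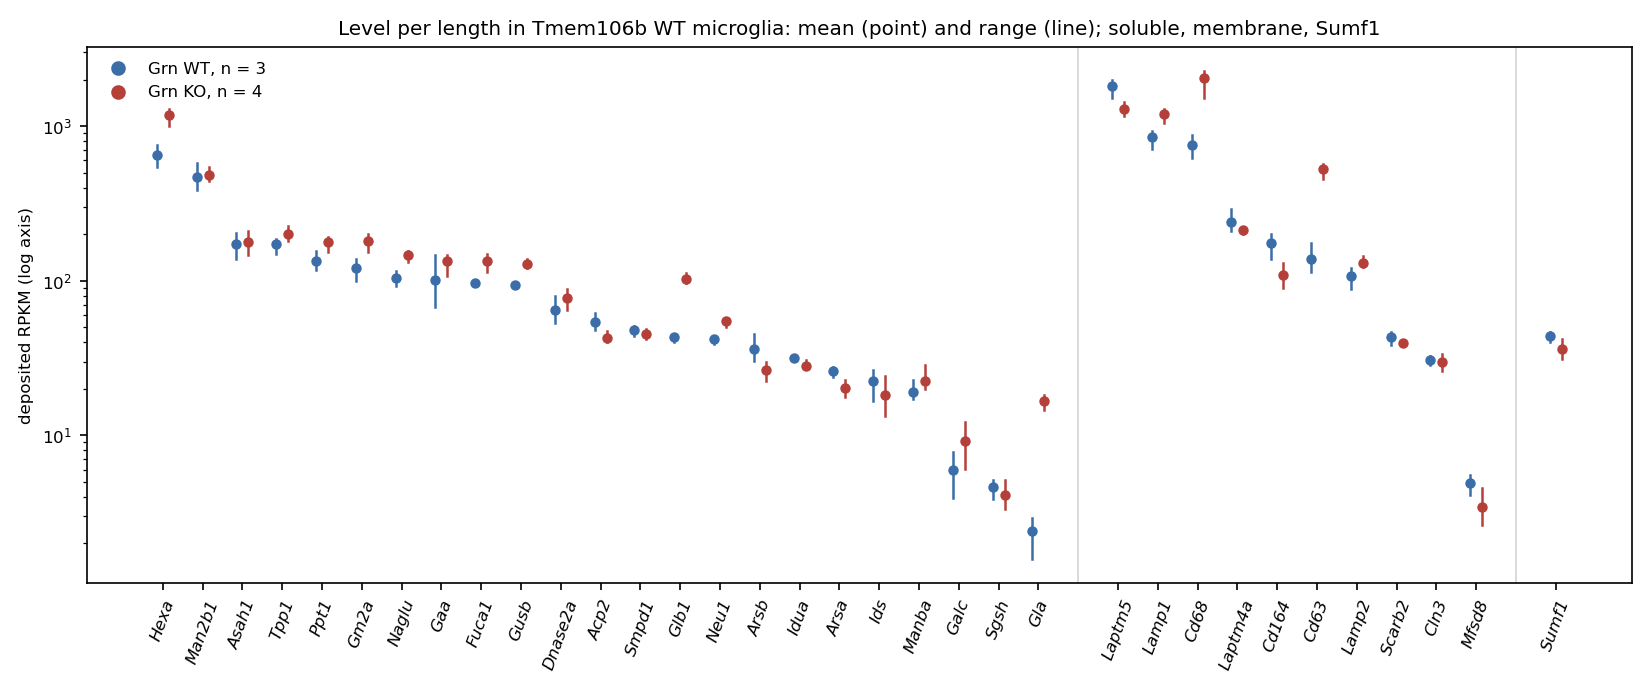
Deposited RPKM (vertical log axis) of the 34 genes in Tmem106b WT microglia, with soluble genes on the left, membrane genes in the middle and Sumf1 on the right, ordered by level in Grn WT. Points are means and lines run from the lowest to the highest library, blue for Grn WT (n = 3) and red for Grn KO (n = 4). The ranges are apart for Gla, Glb1, Cd63 and Cd68, and the levels run from 2.40 RPKM (Gla) to 1822 RPKM (Laptm5) in Grn WT.

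Summed over the 23 soluble genes, RPKM was 2518 ± 231 (SD, n = 3) in Tmem106b WT Grn WT and 3419 ± 259 (n = 4) in Tmem106b WT Grn KO, and over the 10 membrane genes it was 4168 ± 595 and 5582 ± 613. The libraries of the groups did not overlap for either sum (soluble 2254 to 2676 against 3078 to 3646 RPKM, membrane 3490 to 4599 against 4680 to 6030 RPKM). The ratio of soluble to membrane RPKM was 0.607 ± 0.038 and 0.615 ± 0.031, a difference within the spread between libraries. In Tmem106b HET the ratio was 0.663 ± 0.026 in Grn WT (n = 4) and 0.671 ± 0.102 in Grn KO (n = 3). Both sums were larger in Tmem106b WT Grn KO. A sum weighs the genes of highest RPKM most, among them Cd68 and Hexa, whose means were higher in Grn KO. In Grn KO against Grn WT in Tmem106b WT, 6 of the 10 membrane genes had a negative log2 fold change (median -0.12). Of the 23 soluble genes 6 did (median 0.28). RPKM sums were not scaled by TMM and were not tested.

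A wider list of 30 further lysosomal genes gave the surroundings of these values. In the averaged Grn KO comparison 4 of the 30 rose (13.3%) and 3 fell (10%), near the 10.7% and 7.38% of all genes tested. Those that rose were Galns, which removes sulfate from keratan sulfate (log2 fold change 1.09, SE 0.31), Npc2, which hands cholesterol on for export (0.72, SE 0.25), the acid lipase Lipa (0.69, SE 0.20) and Gnptg, a subunit of the enzyme that makes the mannose 6-phosphate tag (0.40, SE 0.13). Those that fell were the phospholipase Pla2g15 (-1.01, SE 0.24), the acid amidase Naaa (-0.92, SE 0.23) and Pip4p1, a phosphoinositide phosphatase of the lysosomal membrane (-0.49, SE 0.12). Their edgeR adjusted p was between 0.00784 and 0.0486. By class, 3 rose and 2 fell of 15 soluble genes, 0 rose and 1 fell of 10 membrane genes, and 1 rose of 5 sorting genes. In Tmem106b WT 0 of the 30 passed with edgeR. Of the 30, 7 had an unadjusted p under 0.05 in that background, beside 2647 of all 21371 genes. In Tmem106b HET Pla2g15 (-1.40) and Naaa (-1.28) fell. The median over the 30 genes was 0.31, -0.09 and 0.09 in Tmem106b WT, in Tmem106b HET and averaged, beside 0.22, -0.23 and -0.05 for the 34. Class medians of the wider list were 0.31 for soluble and 0.27 for membrane genes in Tmem106b WT. They were -0.13 and -0.02 in Tmem106b HET, and 0.08 and 0.09 averaged. The lower membrane median of the 34 genes was thus not seen there in Tmem106b HET or averaged.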

How the data were processed

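Gene counts deposited by the authors are, per the file headers, exonic counts per Ensembl gene. The RPKM column deposited by the authors, per the file headers, divides a count by exonic gene width and by a library total, of which the counts made up 79.9% to 86.4%. The aligner was GSNAP and the build GRCm38, per the submitters' processing notes. Strand setting, counter and the treatment of shared reads are not given in the sources used here. Exons of another gene overlap Glb1 (Tmppe, same strand) and, on the other strand, Hexa, Galc, Sgsh, Arsa, Arsb, Idua, Ppt1, Dnase2a, Acp2, Lamp1, Cln3, Mfsd8 and Grn, so their counts may include reads of a neighbour.

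The deposited counts were tested with edgeR 4.0.16 (R 4.3.3), with 21371 genes left by its expression filter, TMM scaling, all 26 libraries and 7 groups in 1 robust quasi-likelihood fit, and sex and dissection as covariates. The test was two-sided and adjusted by Benjamini-Hochberg over all genes in each of 10 comparisons, with a threshold of 0.05. CPM of genes use TMM-scaled totals, and marker sums use plain totals. Alternatives used limma 3.58.1, DESeq2 1.42.0, other scalings, filters, covariates and libraries. The fit was checked on simulated counts with 200 changed genes of 21371. It recovered 57% of 2-fold and 99% of 8-fold changes in the averaged comparison, 30% and 96% in Tmem106b WT, and 23% and 96% in Tmem106b HET.

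The 34 genes, the other lists and the tests were chosen with earlier results of these data known. All 34 could be named. Values in every library are given for genes that passed in any comparison, and other genes are given by counts and ranges or as the 3 highest per class by RPKM. From the wider lysosomal list, up to 4 genes that passed per class are named by p. No 2 libraries of a group agreed within counting noise. Libraries carry no molecular identifiers, so counts are reads and not molecules. Promoters come from RefSeq for GRCm38.p6.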

Additional observations from a re-analysis of the deposited data

Results flagged for a closer look

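Over the 34 genes, each in the 4 groups of 4 or 5 libraries, 7 values in 136 sets lay beyond the 95% limit of Dixon's test, which compares the gap to the next library with the whole range. Chance marks about 1 in 20 sets. All 7 were in libraries of the Hemi dissection, and the part of the dissection in these values was not tested.

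In Tmem106b KO Grn WT, replicate 2 held Gaa at 1934 CPM, above a group median of 464 CPM, and the heparan and dermatan sulfate enzyme Idua at 26.1 CPM, below a median of 113 CPM. The same library was the lowest of its group in microglial markers (6279 CPM) and the highest in neuronal markers (7180 CPM). In Tmem106b WT Grn KO, replicate 2 was the lowest for Lamp1 (2728 CPM, median 3640.1), the thioesterase Ppt1 (627 CPM, median 857) and Smpd1 (118 CPM, median 147), and its microglial marker sum, 14287 CPM, was the lowest of that group. Smpd1 was high in replicate 3 of Tmem106b HET Grn WT (197 CPM, median 134) and in replicate 5 of Tmem106b WT Grn HET (283 CPM, median 150.1).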

How the results depend on the processing

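Counts of the 34 genes that passed moved as follows. Percentages in brackets are the share of all genes tested that passed in the same fit. In Tmem106b WT, Grn KO called 1 gene (0.576%), against 5 with DESeq2 (5.48%) and 2 with limma-voom (0.828%). It called 0 with no covariates (0.271%) or sex only (0.211%). It called 4 in Entire libraries (1.57%), 5 in the compared groups alone (1.75%) and 5 without the 2 libraries low in microglial markers (2.48%). Leaving out 1 library gave 0 to 2. In Tmem106b HET it called 6 (14.5%), against 1 with no covariates (1.05%), with sex only (1.31%) or in the compared groups alone (6.33%). It called 0 with marker sums as covariates (0.0421%). Leaving out 1 library gave 3 to 6, with 3 without Tmem106b HET Grn KO replicate 2 (6.9%) or 3 (4.91%) or Tmem106b HET Grn WT replicate 4 (8.24%). Averaged, it called 10 (18.1%), against 5 with no covariates (5.13%) or sex only (6.49%), none of them lower, and 1 with marker sums (0.683%). Leaving out 1 library gave 5 to 11, with 5 and no lower gene without Tmem106b WT Grn WT replicate 2 (9.55%). The cause was not tested.

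Refits of single genes covered only the 10 genes that passed, in the Grn KO comparisons. Over these 610 refits, 0 reversed, 95 lost and 31 gained a call, and 484 stayed on the same side of the threshold. The genes were picked by passing in the same libraries, so the absence of reversals is not an independent check. The other 7 comparisons called 0 of the 34 in every setting run. Over all genes the range was 45 to 1171 in Tmem106b WT, 9 to 5264 in Tmem106b HET and 146 to 5812 averaged, against 123, 3093 and 3863, and it was 1 to 376, 1095 to 2753 and 2147 to 4652 with 1 library left out. The other 7 comparisons called 0 or 1 of all genes, against up to 548 under an alternative. No paired analysis was possible because the labels carry no replicate numbers that groups share.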
